A study of Oryctolagus cuniculus with 6 samples.

Results

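The kynurenine pathway breaks down the amino acid tryptophan, and its 10 listed enzymes (IDO1, IDO2, TDO2, AFMID, AADAT, KMO, KYNU, HAAO, ACMSD and QPRT) were followed here in rabbit conjunctiva with and without dry eye disease (DED). The genes were chosen by their place in the pathway and found by symbol: a probe set, the group of probes that measures one transcript, was used where the platform annotation listed that symbol alone. All 10 genes had exactly 1 such probe set, out of 15795 probe sets with 1 symbol and 23364 in all, so no measured value was needed to choose between probe sets, for which the highest mean over the 6 arrays had been set. The pathway was taken up with earlier results of these data known, and its calls are therefore given as a description of this pathway and not as independent evidence for it.

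In the first step of the pathway a dioxygenase opens the indole ring of tryptophan, and AFMID turns the product into kynurenine. Kynurenine then goes one of several ways: to kynurenic acid by aminotransferases such as AADAT, or through KMO, KYNU and HAAO to an unstable semialdehyde, which forms quinolinic acid unless ACMSD removes it. QPRT carries quinolinic acid into the synthesis of NAD. In inflamed tissue IDO1 is known as an enzyme that interferon-gamma induces, and local loss of tryptophan with gain of kynurenine restrains T cells, while TDO2 does the same chemical step mainly in liver.

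The DED group comprised adult male Dutch Belted rabbits whose periorbital lacrimal glands had been injected with concanavalin A (ConA), a plant lectin that activates T cells, on days 1, 8 and 14, with the conjunctiva taken on day 18. The naive group comprised healthy rabbits of the same breed and sex, and all animals of both groups had their nictitating membranes removed. Each group had 3 arrays (Affymetrix Rabbit Gene 1.0 ST), each of RNA pooled from several animals, and the sources differ on how many. No group injected without ConA is among the samples, so the lectin and the injection itself cannot be told apart. Values are log2 expression after Robust Multi-chip Analysis (RMA), which adjusts the background, forces the arrays to a common distribution and summarises the probes. One unit on this scale is a doubling of signal, and levels of different genes cannot be compared because their probes differ.

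The tissue was full-thickness and included Tenon's capsule, and markers of conjunctival epithelium were present on every array. KRT4, a keratin of moist stratified epithelium, had log2 values of 11.38, 11.31 and 11.22 in DED and 10.84, 10.85 and 10.94 in naive conjunctiva. Arrays of 1 group correlated at 0.994 to 0.995 and arrays of different groups at 0.988 to 0.99 over the probe sets of the array (probe sets do not count as replicates), and array medians lay between 6.18 and 6.2. No array stood apart from its group.

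Of the 10 enzymes, 5 were higher in DED (IDO1, ACMSD, KYNU, AADAT and IDO2), 0 were lower and 5 missed the threshold, an adjusted p of 0.05 from limma, which is a moderated linear model fitted on all probe sets. Over all 23364 probe sets 7.1% passed this threshold, 4.41% with higher and 2.69% with lower values in DED. The median log2 fold change of the 10 enzymes was 0.32, against -0.01 over all probe sets. In 6 of the 10 every DED array lay above every naive array, and in none did every DED array lie below, where 13.4% and 14.5% of all probe sets did so (27.8% in either direction). At an unadjusted p under 0.05 by limma the number of enzymes was 7 of 10, where 21.9% of all probe sets lay under it. An exact two-sided permutation test of any single gene cannot go below p = 0.1 with 3 arrays against 3, and each of the 6 enzymes without overlap stands at that limit. RNA of every cell in the tissue enters these values, so fewer cells of a type and less RNA per cell cannot be told apart.

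**Figure D1:**
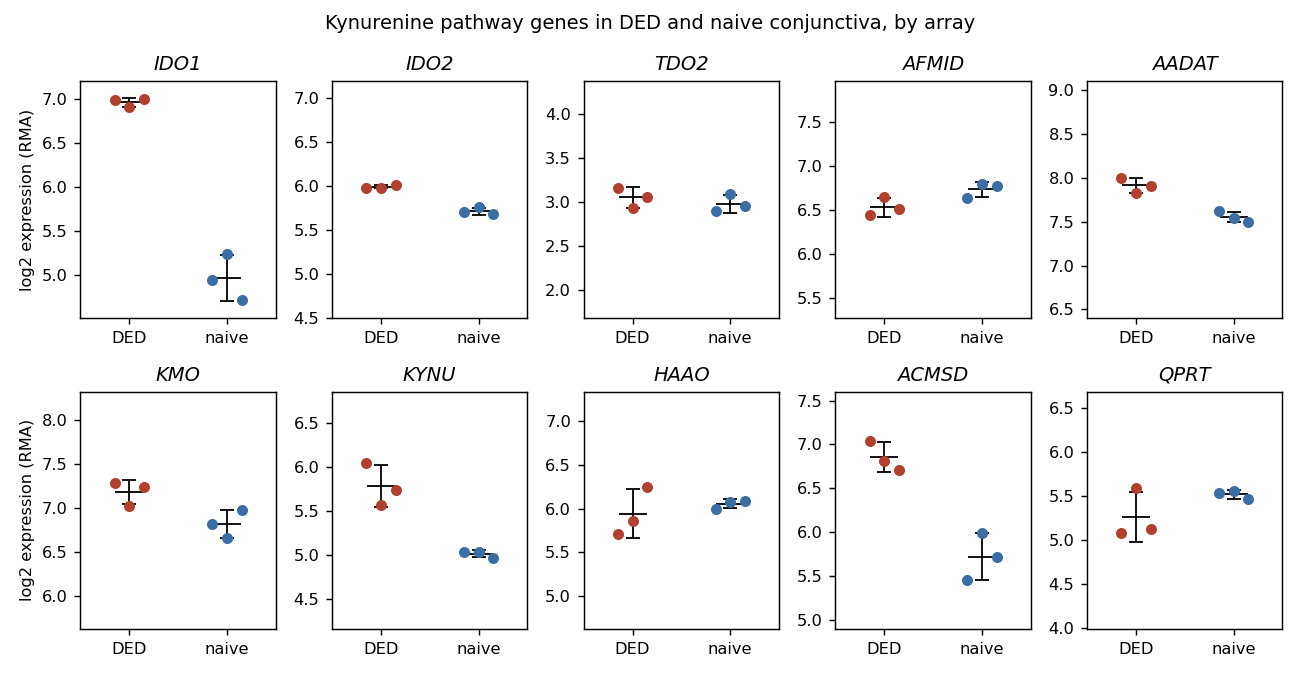
Log2 expression (RMA, vertical axis) of each enzyme on the 3 DED (red, left) and 3 naive (blue, right) arrays; bars give the mean and SD, and every panel spans the same number of log2 units. IDO1 shows the widest gap between the groups and ACMSD the next, while TDO2, AFMID, HAAO and QPRT overlap.

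IDO1 (probe set 19887443), the interferon-inducible dioxygenase of the first step, showed the largest change of the pathway. It had log2 values of 6.99, 6.91 and 7.00 in DED and 4.95, 5.24 and 4.72 in naive conjunctiva. The lowest DED array lay 1.67 above the highest naive array, and the DED arrays spanned 0.09 where the naive arrays spanned 0.52. The mean was 6.97 ± 0.05 in DED and 4.97 ± 0.26 in naive conjunctiva (SD, n = 3 each), a 3.99-fold difference (log2 fold change 2.00, standard error 0.13; adjusted p = 5.96e-04 by limma). By the size of its change in either direction IDO1 was number 22 of the 23364 probe sets. With any 1 array left out the log2 fold change was 1.87 to 2.13 and the adjusted p by limma 9.24e-04 to 0.00679.

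IDO2 (probe set 19887433), the paralog of IDO1 and its direct neighbour among protein-coding genes in the RefSeq rabbit assembly mOryCun1.1, is a dioxygenase of low activity towards tryptophan in human and mouse. Its log2 values were 5.98, 5.98 and 6.01 in DED and 5.70, 5.76 and 5.68 in naive conjunctiva. The groups did not overlap, but the gap between them was only 0.22. The mean was 5.99 ± 0.02 in DED and 5.71 ± 0.04 in naive conjunctiva (SD, n = 3 each), a 1.21-fold difference (0.28 ± 0.05 on the log2 scale, standard error; adjusted p = 0.0329 by limma). The call was lost whichever 1 of the 6 arrays was left out, with an adjusted p by limma of 0.0736 to 0.104 at a log2 fold change of 0.26 to 0.3, and with an intensity trend in the fit (adjusted p = 0.0687). Probe sequences were not analysed here, so hybridization between the paralogs was not tested.

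TDO2 (probe set 19783010), the dioxygenase of liver, had log2 values of 3.16, 2.93 and 3.06 in DED and 2.89, 3.09 and 2.95 in naive conjunctiva. The groups overlapped, and the probe set was the only one of the 10 enzymes among the 30% dimmest of the array. The log2 fold change was 0.07 (95% interval -0.13 to 0.28; adjusted p = 0.684 by limma), and 0.02 to 0.13 with 1 array left out. The values carry no detection calls, so TDO2 is not shown to lie above background. ALB, the liver protein albumin, which was singled out after its values were seen, had log2 values of 3.40, 3.20 and 3.40 in DED and 3.54, 3.28 and 3.40 in naive conjunctiva.

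AFMID (probe set 19931063), which hydrolyses formylkynurenine to kynurenine, had log2 values of 6.44, 6.65 and 6.51 in DED and 6.64, 6.80 and 6.77 in naive conjunctiva. A single DED array, replicate 2, reached into the naive range, by 0.01. The log2 fold change was -0.20 (95% interval -0.40 to -0.01; adjusted p = 0.204 by limma), with an unadjusted p of 0.0407.

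AADAT and KMO both use kynurenine. AADAT (probe set 19823285), a mitochondrial aminotransferase that makes kynurenic acid, had log2 values of 8.00, 7.83 and 7.91 in DED and 7.62, 7.54 and 7.50 in naive conjunctiva. All DED arrays lay above all naive arrays, with a gap of 0.21. The mean was 7.91 ± 0.09 in DED and 7.55 ± 0.06 in naive conjunctiva (SD, n = 3 each), 1.28-fold (0.36 ± 0.07 on the log2 scale, standard error; adjusted p = 0.0301 by limma). The call did not survive the loss of any 1 array (adjusted p 0.0514 to 0.0992 by limma, log2 fold change 0.32 to 0.4) or the methods' one-way analysis of variance (adjusted p = 0.0585).

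KMO (probe set 19786324), a flavin enzyme of the outer mitochondrial membrane that makes hydroxykynurenine, had log2 values of 7.28, 7.02 and 7.23 in DED and 6.81, 6.66 and 6.97 in naive conjunctiva. The groups did not overlap, but only 0.05 lay between them. Its log2 fold change of 0.36 was of the same size as that of AADAT, with a wider 95% interval of 0.11 to 0.62, and it did not pass (adjusted p = 0.104 by limma). With an intensity trend in the fit KMO passed (adjusted p = 0.0262).

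KYNU (probe set 19858707), a pyridoxal phosphate enzyme that splits hydroxykynurenine into hydroxyanthranilate and alanine, had log2 values of 6.05, 5.57 and 5.74 in DED and 5.04, 5.04 and 4.97 in naive conjunctiva. The DED arrays were all higher, and they spanned 0.48 against 0.07 in naive conjunctiva, with replicate 1 highest. The mean was 5.79 ± 0.24 in DED and 5.02 ± 0.04 in naive conjunctiva (SD, n = 3 each), 1.71-fold (0.77 ± 0.12 on the log2 scale, standard error; adjusted p = 0.015 by limma). The call was lost without DED replicate 3 (adjusted p = 0.0503) and without naive replicate 1, 2 or 3 (0.0556, 0.0559 and 0.0594, all by limma), and in the one-way analysis of variance (0.0707).

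HAAO (probe set 19820712), the iron enzyme that opens the ring of hydroxyanthranilate, had log2 values of 5.71, 5.86 and 6.25 in DED and 6.00, 6.08 and 6.09 in naive conjunctiva. The naive values lay inside the range of the DED values, which spanned 0.54. The log2 fold change was -0.12 (95% interval -0.45 to 0.21; adjusted p = 0.684 by limma), and it ranged with 1 array left out between -0.0017 without DED replicate 1 and -0.27 without DED replicate 3.

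ACMSD (probe set 19858549), the decarboxylase that diverts the semialdehyde from quinolinic acid towards glutarate and full oxidation, had the second largest change. Its log2 values were 7.04, 6.81 and 6.71 in DED and 5.46, 5.99 and 5.72 in naive conjunctiva. Between the lowest DED and the highest naive array lay 0.72, although the naive arrays of this enzyme varied the most of the 10. The mean was 6.85 ± 0.17 in DED and 5.72 ± 0.27 in naive conjunctiva (SD, n = 3 each), 2.19-fold (1.13 ± 0.15 on the log2 scale, standard error; adjusted p = 0.0078 by limma). With any 1 array left out the log2 fold change was 1.00 to 1.26 and the adjusted p by limma 0.0118 to 0.0355, while the one-way analysis of variance gave 0.0532.

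QPRT (probe set 19900191), which joins quinolinic acid to a ribose phosphate on the way to NAD, had log2 values of 5.08, 5.59 and 5.12 in DED and 5.53, 5.56 and 5.46 in naive conjunctiva. DED replicate 2 was above all naive arrays and the other DED arrays were below all of them. The log2 fold change was -0.25 (95% interval -0.59 to 0.08; adjusted p = 0.353 by limma). Without DED replicate 2 it was -0.42, with an adjusted p of 0.0374 by limma, and without DED replicate 1 it was -0.16, with an adjusted p of 0.615.

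**Figure D2:**
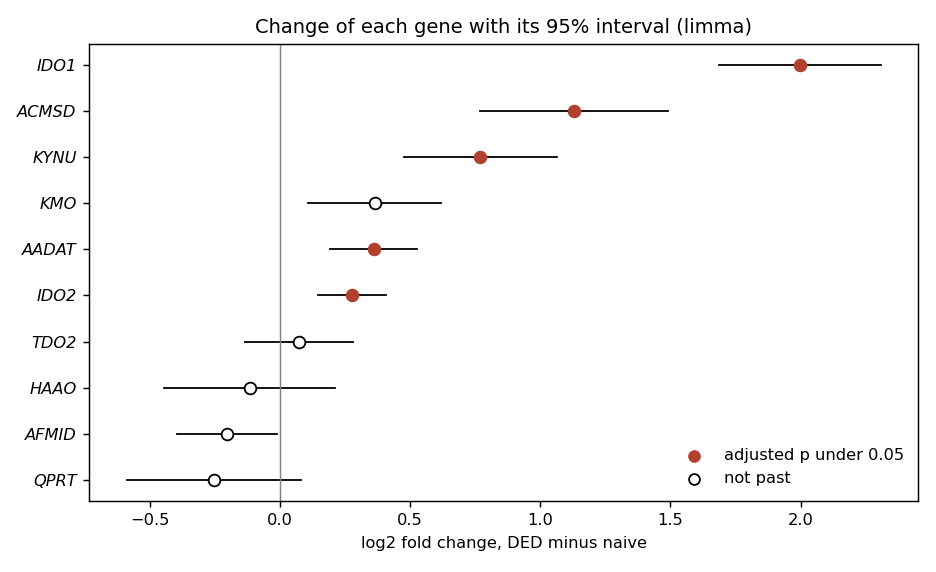
Log2 fold change, DED minus naive (horizontal axis), of each enzyme with its 95% interval from limma; filled points passed an adjusted p under 0.05. IDO1, at 2.00, lies clear of the interval of ACMSD, whose own interval of 0.77 to 1.49 overlaps that of KYNU, 0.48 to 1.06.

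**Figure D3:**
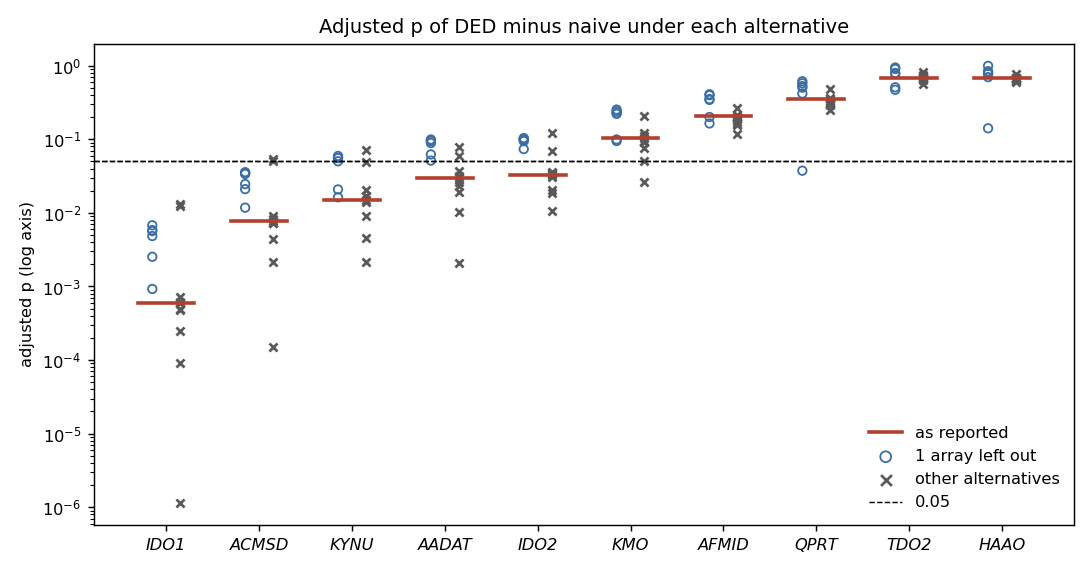
Adjusted p (log axis) of each enzyme as reported (red line), with 1 array left out (open circles) and under the other alternatives (crosses); the dashed line is 0.05. IDO1 stays below the line throughout, with 0.0131 as its highest value, while the open circles of AADAT and IDO2 all lie above it.

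The DED pools did not vary in the same way for all enzymes. Replicate 1 was the highest of the DED arrays for 5 enzymes (TDO2, AADAT, KMO, KYNU and ACMSD) and the lowest, alone or tied, for 4 (IDO2, AFMID, HAAO and QPRT). Replicate 2 was the highest for AFMID and QPRT and the lowest, alone or tied, for 6 (IDO1, IDO2, TDO2, AADAT, KMO and KYNU). Among the naive arrays replicate 2 was the highest, alone or tied, for 7 (IDO1, IDO2, TDO2, AFMID, KYNU, ACMSD and QPRT). Naive replicate 3 was the lowest for 5 (IDO1, IDO2, AADAT, KYNU and QPRT).

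Enzymes that share a step, share a substrate or follow one another were compared by the log2 difference of the pair on each array, in 8 pairs. At the first step the difference IDO1 minus IDO2 was 1.01, 0.93 and 0.99 in DED and -0.75, -0.52 and -0.96 in naive conjunctiva, so IDO1 gained 1.72 on its paralog. IDO1 gained 2.20 on AFMID, the enzyme after it. The 1.92 against TDO2, which is not shown to lie above background, adds nothing to the change of IDO1 itself. In all 3 pairs every DED array lay above every naive array. IDO1 alone had a gap of 1.67 between the groups, so these pairs are no evidence separate from its own change.

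At kynurenine, KMO minus AADAT was -0.72, -0.81 and -0.68 in DED and -0.81, -0.88 and -0.53 in naive conjunctiva. The naive range enclosed the DED range, and the means differed by 0.0033. Further down, KYNU gained 0.41 on KMO and 0.89 on HAAO, both without overlap of the groups. KYNU alone had a gap of 0.53 between the groups, and KMO and HAAO did not pass. These pairs are therefore no evidence separate from the change of KYNU.

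At the semialdehyde, ACMSD minus QPRT was 1.96, 1.22 and 1.59 in DED and -0.07, 0.43 and 0.26 in naive conjunctiva. The enzyme of the glutarate branch thus gained 1.38 on the enzyme of the NAD branch, with all DED arrays above all naive arrays. ACMSD alone rose by 1.13 and QPRT did not pass, so this pair is no separate evidence either. HAAO minus QPRT changed by 0.14, with overlap. The exact two-sided permutation test gave p = 0.1 for the 6 pairs without overlap, the one with TDO2 included, the smallest 3 against 3 arrays allow, and 0.133 after Benjamini-Hochberg adjustment over the 8 pairs. It gave 1.0 for KMO minus AADAT and 0.8 for HAAO minus QPRT, 1.0 and 0.914 after adjustment.

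**Figure D4:**
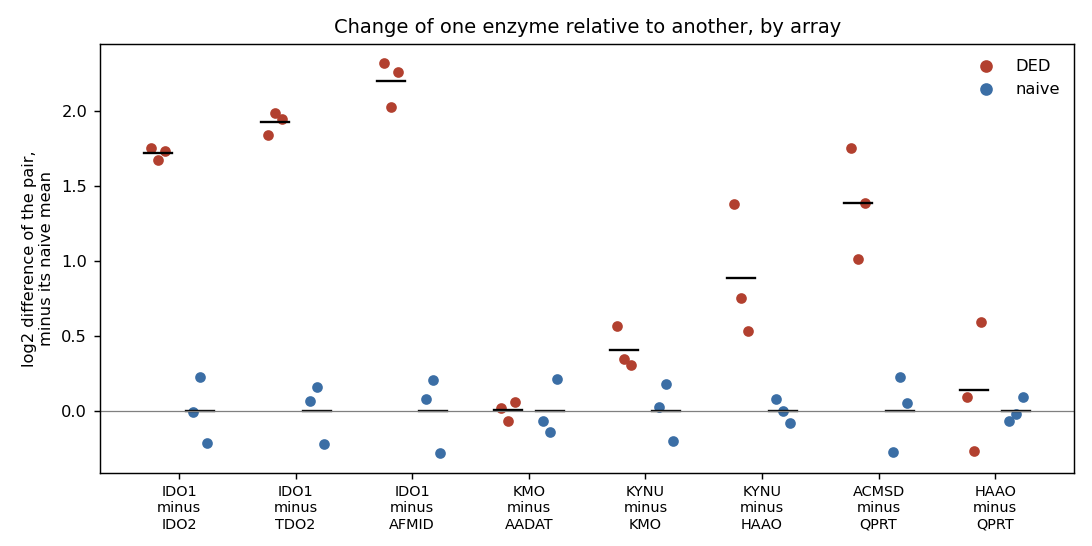
Log2 difference between the enzymes of each of the 8 pairs on the DED (red) and naive (blue) arrays, minus the naive mean of that pair (vertical axis, log2 units; bars are group means). The 3 pairs with IDO1 and the pair ACMSD minus QPRT lie highest in DED, and KMO minus AADAT lies near 0.

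Genes around the pathway were read from 11 lists, of which 71 of 91 genes had a probe set of 1 symbol. In the same limma fit 12 of these were higher in DED, 2 were lower and 57 did not pass, with a median log2 fold change of 0.04. The lists differed in how many of their genes passed, and most of those higher in DED were in the 2 interferon-gamma lists. Which interferon, if any, acted on these genes was not tested.

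Of the interferon-gamma signal that induces IDO1, 3 of 9 measured genes were higher and 0 lower, with a median log2 fold change of 0.2. IRF1, a transcription factor that binds the IDO1 promoter in human cells, had log2 values of 8.98, 8.92 and 8.98 in DED and 8.50, 8.22 and 8.43 in naive conjunctiva (log2 fold change 0.58, adjusted p = 0.0111 by limma). JAK2, a kinase of the interferon-gamma receptor, and IL1B, an inflammatory cytokine, were higher by 0.38 and 0.44 on the log2 scale (adjusted p = 0.0313 and 0.0474 by limma). IFNG, the gene of interferon-gamma itself, was looked at after its values were seen. It had log2 values of 2.80, 2.88 and 3.21 in DED and 2.71, 2.79 and 2.82 in naive conjunctiva, which overlap (log2 fold change 0.19, adjusted p = 0.391 by limma). Its probe set is among the 30% dimmest, as are those of TDO2 and ALB, so these values do not show whether the transcript changed. IRF1 lost its call without DED replicate 1 (adjusted p = 0.0525). JAK2 lost its call without any DED replicate or naive replicate 2 or 3 (0.0773 to 0.106), and IL1B did so without any 1 array (0.0544 to 0.141).

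Of other genes that interferon-gamma induces, 6 of 8 measured were higher and 0 lower, with a median log2 fold change of 0.49. Over all probe sets 4.41% were called higher. CXCL11, a chemokine for activated T cells, had log2 values of 6.46, 6.51 and 6.45 in DED and 4.60, 5.02 and 4.85 in naive conjunctiva (log2 fold change 1.65, adjusted p = 6.15e-04 by limma). CXCL10, a chemokine for the same receptor, and WARS1, the tryptophanyl-tRNA synthetase that charges tRNA with the same amino acid that IDO1 breaks down, were higher by 1.10 and 0.71 on the log2 scale (adjusted p = 0.00122 and 9.65e-04 by limma). TAP1, a peptide transporter of antigen presentation, was at 0.55 (adjusted p = 0.00463). For WARS1 the DED arrays stood at 10.03, 10.05 and 10.03 and the naive arrays at 9.36, 9.31 and 9.31. All 4 genes kept their calls with any 1 array left out. CXCL9 and CIITA, looked at after their values were seen, were the 2 genes that did not pass. Both overlapped between the groups, at log2 fold changes of 0.34 and -0.10 (adjusted p = 0.252 and 0.609 by limma).

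Of the genes that supply, sense or branch from the pathway few passed, as over all probe sets, of which 7.1% did. Of 6 tryptophan transporters 1 was higher: SLC7A8, a neutral amino acid exchanger, at a log2 fold change of 0.37 (adjusted p = 0.039 by limma). SLC7A5 and SLC3A2, looked at after their values were seen, lay lower in DED without overlap, at -0.24 and -0.18. They did not pass (adjusted p = 0.114 and 0.115 by limma), but both passed as lower with an intensity trend in the fit (0.0192 and 0.0133). Of 9 genes of the serotonin and tryptamine branch 1 was higher, GCH1, which starts the synthesis of the cofactor tetrahydrobiopterin, at 0.40 (adjusted p = 0.0259). Of 7 NAD-consuming enzymes 1 was higher, PARP14, an interferon-responsive ADP-ribosyltransferase, at 0.49 (adjusted p = 0.0067). SLC7A8 lost its call without DED replicate 1 or 3 or any naive replicate (0.0988 to 0.121), and GCH1 without any DED replicate or naive replicate 1 or 2 (0.0749 to 0.0875).

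The remaining aminotransferases, the genes below ACMSD and those of NAD synthesis had no member past the threshold, in 3, 7 and 7 measured genes. The largest changes among them were -0.09 for KYAT1, a kynurenine aminotransferase (adjusted p = 0.437 by limma), 0.33 for ALDH8A1, which oxidises the product of ACMSD (adjusted p = 0.0842), and -0.24 for NMRK1, a nicotinamide riboside kinase (adjusted p = 0.12). ALDH8A1 had log2 values of 5.59, 5.78 and 5.69 in DED and 5.23, 5.35 and 5.49 in naive conjunctiva, which do not overlap. It passed without the 30% dimmest probe sets (adjusted p = 0.0377) but not with an intensity trend in the fit (0.083). ACAT1, a further gene below ACMSD looked at after its values were seen, was lower in DED without overlap (log2 fold change -0.21, adjusted p = 0.0921 by limma). ACAT1 passed as lower with an intensity trend (0.00317) and without the 30% dimmest probe sets (0.0403).

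The aryl hydrocarbon receptor, which binds kynurenine and kynurenic acid, and its targets had 0 of 5 measured genes past the threshold. AHR itself, singled out after its values were seen, had log2 values of 9.25, 9.24 and 9.25 in DED and 9.22, 9.24 and 9.24 in naive conjunctiva, a log2 fold change of 0.01 (95% interval -0.11 to 0.14) that turned to -0.04 with quantile normalization once more. CYP1B1, a target and the largest change of the list, was at -0.26 (adjusted p = 0.226 by limma). Of the amino acid starvation response 0 of 5 passed, and ASNS, asparagine synthetase, had the largest change, 0.17 (adjusted p = 0.291).

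In the same limma fit the 2 of 71 list genes that were lower were both cofactor genes, of which 5 were measured. Over all probe sets 2.69% were called lower. CYB5R3, a reductase of cytochrome b5, had log2 values of 9.78, 9.56 and 9.66 in DED and 10.39, 10.35 and 10.35 in naive conjunctiva (log2 fold change -0.70, adjusted p = 0.00305 by limma). PDXK, the kinase that makes pyridoxal phosphate, the cofactor of KYNU and AADAT, was at -0.26 (adjusted p = 0.0389), with the groups apart but the call lost without any 1 array (0.0786 to 0.123).

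**Figure D5:**
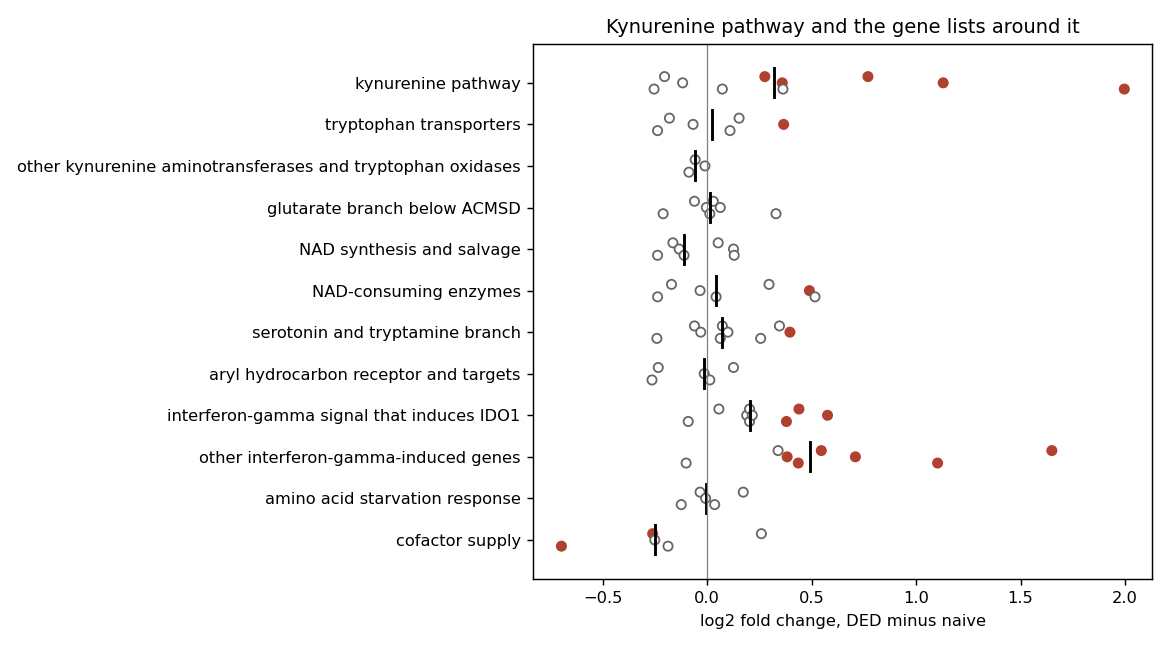
Log2 fold change, DED minus naive (horizontal axis), of the kynurenine enzymes and of the measured genes of the 11 lists; each point is a gene, filled where it passed an adjusted p under 0.05, and the vertical bar is the median of the list. Filled points to the right stand mainly in the kynurenine pathway and the 2 interferon-gamma lists, and those to the left in cofactor supply.

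Markers of cells that carry these enzymes elsewhere moved on the same arrays. Over all probe sets 4.41% were called higher and 2.69% lower, the share to set beside every marker count below. Of macrophage and dendritic cell markers, cells in which IDO1, KMO and KYNU are known to be expressed, 6 of 10 were measured, and 3 were higher: MSR1 at 0.93, CD68 at 0.91 and CD86 at 0.46 (adjusted p = 0.00301, 3.98e-04 and 0.0491 by limma). MARCO, ITGAX and CD83, looked at after their values were seen, overlapped between the groups, at -0.14, 0.06 and 0.11 (adjusted p = 0.38, 0.918 and 0.719 by limma). The signal summed on the linear scale over all 6 measured markers, 3 of which did not pass, was 669 to 682 in DED and 418 to 451 in naive arrays. Such a sum adds unlike probes and is read between arrays only. CD86 lost its call without any 1 array (0.07 to 0.146). The part of these cells in the change of IDO1, KMO and KYNU was not tested.

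Of kidney proximal tubule markers, a cell type in which ACMSD is known to be high, 9 of 12 were measured and all 9 were higher in DED. SLC13A1, a sulfate transporter, was at 1.23, CUBN, an endocytic receptor, at 1.20, LRP2, its partner megalin, at 1.02, and SLC5A12, a lactate transporter, at 1.00 (adjusted p = 4.23e-04, 0.00184, 3.36e-04 and 3.36e-04 by limma). The summed linear signal of the 9 was 1476 to 1511 in DED and 806 to 845 in naive arrays. The part of their source in the change of ACMSD was not tested.

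The other marker lists were neutrophils (4 of 5 measured markers higher), T cells (2 of 4 higher), B and plasma cells (2 of 3 higher), vascular endothelium (2 of 4 higher), conjunctival epithelium (3 of 6 higher), hepatocytes (2 of 7 higher), fibroblasts (3 of 6 higher and 1 lower) and goblet cells (1 of 3 lower). The largest changes in them were S100A8, a calcium-binding protein of neutrophils, at 1.89, CD3G, a chain of the T cell receptor complex, at 0.73, MS4A1, the B cell antigen CD20, at 1.00, VWF, the von Willebrand factor of endothelium, at 0.87, and KRT5, a basal keratin, at 0.59 (adjusted p = 1.98e-04, 0.0074, 0.00253, 5.96e-04 and 0.00496 by limma). JCHAIN, the joining chain of secreted antibodies and the third B and plasma cell marker measured, was looked at after its values were seen and went the other way. It had log2 values of 12.67, 12.62 and 12.61 in DED and 12.87, 12.83 and 12.85 in naive conjunctiva, without overlap (log2 fold change -0.22, adjusted p = 0.0673 by limma). It passed in the analysis of variance, with a second quantile normalization, with an intensity trend, with single-symbol probe sets only and without the 30% dimmest (2.36e-04 to 0.0447). The summed linear signal of the 3 B and plasma cell markers was 6537 to 6796 in DED and 7439 to 7656 in naive arrays. JCHAIN makes up most of this sum, with a log2 mean over the 6 arrays of 12.74 against 6.27 for MS4A1 and 7.11 for CD79B. The sum therefore repeats JCHAIN and does not show the 2 markers that were higher. The summed linear signal of the 3 goblet cell markers was 2711 to 2884 in DED and 3112 to 3203 in naive arrays. PAX6, KDR and CD3E were also looked at after their values were seen. PAX6, a transcription factor among the epithelial markers, was lower without overlap (log2 fold change -0.15, adjusted p = 0.188 by limma). PAX6 passed with an intensity trend (0.0123). KDR of endothelium and CD3E of T cells overlapped between the groups, at -0.11 and -0.0033 (adjusted p = 0.511 and 0.989 by limma). Among hepatocyte genes FGB, a fibrinogen chain, was at 0.76 (adjusted p = 0.0135). FGB lost its call without DED replicate 3 or naive replicate 2 (0.052 and 0.0539). Among the other markers counted here CD4, CSF3R, KRT4, LUM, COL1A1, COL3A1, PDGFRA, MUC5AC and APOB each lost the call with at least 1 array left out (0.0563 to 0.141).

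The single-symbol genes with the most similar values to each enzyme were found by the root mean square difference over the 6 arrays, after each gene was centred on its own mean. Closest to IDO1 were CHI3L1, a chitinase-like glycoprotein, at a difference of 0.0876, and IFGGA1, an interferon-inducible GTPase, at 0.155. Next were LOC100350165 at 0.174, MUC12, a membrane mucin, at 0.178, and LOC100008716 at 0.183. CHI3L1 had log2 values of 8.35, 8.08 and 8.18 in DED and 6.25, 6.38 and 6.06 in naive conjunctiva. These genes were picked by their values on these same arrays, so a likeness to IDO1 is no separate evidence.

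The genes closest to ACMSD were FPR2, a formyl peptide receptor of phagocytes, at 0.124, LOC100328911 at 0.126 and CALB1, a calcium-binding protein of the distal kidney tubule, at 0.148. Closest to KYNU were FGB at 0.0801, DIAPH3, an actin-nucleating formin, at 0.083 and BUB1B, a mitotic checkpoint kinase, at 0.0845. AADAT lay closest to P4HA1, a collagen prolyl hydroxylase, at 0.0254, and IDO2 to ANXA8, an annexin, at 0.009.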

How the data were processed

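The deposited log2 values were made by the authors in the Transcriptome Analysis Console (version not given in the sources used here) by Robust Multi-chip Analysis: background correction, quantile normalization between arrays and a summary over probes. Quantile normalization removes any shift shared by all transcripts. The 6 columns hold 23364 probe sets to 2 decimals, with 15795 listed under 1 symbol, 397 under several and 7172 unnamed here.

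The contrast of DED with naive conjunctiva came from limma 3.58.1 (lmFit, eBayes; R 4.3.3) on the deposited values, adjusted by Benjamini-Hochberg over all probe sets at a threshold of 0.05. Where a list gene had several probe sets, the one with the highest mean was used. The fit was tested on simulated data. Other steps used Python 3.11.15, pandas 2.3.3, numpy 2.4.6, scipy 1.17.1 and matplotlib 3.10.9. Precision is limited by having 3 arrays in a group, and every p-value rests on the spread among pooled samples.

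The genes and lists were chosen with earlier results of these data known. All 10 enzymes are named; in each list, the called genes ranked by size of change, at most 4, and if there was no call the 1 gene that changed most; and up to 5 genes of similar values. AHR, IFNG, ALB, JCHAIN, CXCL9, CIITA, SLC7A5, SLC3A2, PAX6, KDR, CD3E, ACAT1, MARCO, ITGAX and CD83 were added after their values were seen. Settings changed one at a time were eBayes with an intensity trend, eBayes with robust estimation, the one-way analysis of variance that the methods name, no probe sets from the 30% dimmest, a second quantile normalization, centring on array medians, weights per array, a block for replicate number, each array left out, probe sets of 1 symbol only, and averaging all probe sets of a symbol. List genes with no single-symbol probe set were not analysed here.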

Additional observations from a re-analysis of the deposited data

How the results depend on the processing

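IDO1 passed in all 16 alternatives, with log2 fold changes of 1.87 to 2.13. No enzyme changed direction in any alternative, and TDO2 could not be fitted without the 30% dimmest probe sets, to which it belongs. The number of enzymes higher in DED, 5 as reported, was 2 in the one-way analysis of variance (IDO1 and IDO2), 2 with the replicate number as a block and 2 to 3 with 1 array left out, and the number lower was 0 to 1. Among the 71 list genes, 12 higher and 2 lower as reported, the number higher was 15 with an intensity trend, 16 without the 30% dimmest probe sets, 7 in the analysis of variance, 5 with the replicate block and 5 to 8 with 1 array left out. Those lower numbered 9 with an intensity trend, 4 in the analysis of variance, 5 without the 30% dimmest probe sets, 4 with single-symbol probe sets only, 1 with the replicate block and 1 with any 1 array left out. The robust fit, median centring, array weights and the mean of probe sets left the 5 enzymes called. With the intensity trend the number was also 5, with KMO in place of IDO2.

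The replicate numbers do not pair the pools: deviations of same-numbered arrays correlated at -0.0151, 0.0238 and -0.0566, and not every array correlated best with its own number. With the replicate block IDO1 and KYNU passed (adjusted p = 0.0131 and 0.0491 by limma), and ACMSD, AADAT and IDO2 did not (0.0508, 0.0788 and 0.121). The difference KMO minus AADAT turned negative without DED replicate 1 or 3 or naive replicate 1 or 2 (-0.067 to 0.108 over the arrays left out), and HAAO minus QPRT spanned -0.09 without DED replicate 3 to 0.34 without DED replicate 2. AHR was at -0.04 with quantile normalization once more. The alternatives were counted for 47 list and marker genes named, which leave out JCHAIN, CXCL9, CIITA, SLC7A5, SLC3A2, PAX6, KDR, CD3E, ACAT1, MARCO, ITGAX and CD83. Of their 750 values 635 kept direction and side of the threshold, 113 no longer passed, 1 newly passed and 1 changed direction. The causes were not tested. Over all probe sets, 1030 higher and 629 lower as reported, the calls were 1697 and 1332 with an intensity trend, 1392 and 1092 without the 30% dimmest, 490 and 199 with the replicate block, and 558 to 684 and 264 to 344 with 1 array left out.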
